A study of Homo sapiens with 6 samples.

Results

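The NF-kB subunits and feedback inhibitors were followed in 92.1 cells, a human ocular melanoma line, after knockdown of ALKBH3, a demethylase of the AlkB family that acts on alkylated nucleic acids. RNA was sequenced from 3 libraries of an ALKBH3-knockdown derivative labelled shALKBH3, and from 3 libraries labelled NC with a wild-type (WT) genotype. Both groups are cells of the same line grown in the same serum-supplemented medium. The labels name neither the hairpin sequence nor a control hairpin in NC, do not say whether the derivative is 1 clone, and give no culture of origin for any library, so that the spread behind the p-values may be only technical. The 10 genes were chosen by name as subunits and inhibitors of the pathway. Of these, 9 of the 11387 genes with listed transcripts were found, and all 9 had a mean of at least 1 FPKM (fragment counts scaled to transcript length and library total) and entered the test of 10475 genes. REL, which encodes the c-Rel subunit, has no listed transcript and was not analysed here.

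NF-kB transcription factors are dimers of proteins that share a Rel homology region. RELA, RELB and REL carry activation domains, while NFKB1 and NFKB2 encode precursors that are processed into DNA-binding partners. In resting cells the IkB proteins, encoded by NFKBIA, NFKBIB and NFKBIE, hold the dimers in the cytoplasm until the IkB kinase (IKK) complex marks them for degradation. Released dimers bind kB sites and switch on inflammatory genes as well as their own brakes, among them NFKBIA and the ubiquitin-editing enzyme gene TNFAIP3. The ubiquitin ligase gene BIRC3 is induced as well. RELB works mainly with the NFKB2 product in the slower, non-canonical arm.

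The promoters were searched for kB sites. RefSeq promoter windows (build GRCh38.p14, from 250 bases before to 50 bases after an annotated start) were found for 8 of the 10 genes, and RELB and NFKBIE had none. The 10-base kB consensus, searched on both strands, occurred in a window of 7 of the 8, against 7.09% of 27305 genes and 5.91% of 35116 windows overall. RELA had no match in these windows. Overlapping matches were joined, so 16 matches made 12 separate sites. The sites of listed members are shown within 30 bases each, on the gene's strand, with the matched bases in capitals.
NFKB1, chr4:102501300-102501329: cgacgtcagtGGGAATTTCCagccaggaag
NFKB2, chr10:102394462-102394491: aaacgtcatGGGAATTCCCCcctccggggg
NFKB2, chr10:102394490-102394519: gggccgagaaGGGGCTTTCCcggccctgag
NFKB2, chr10:102395519-102395548: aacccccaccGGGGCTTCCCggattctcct
NFKB2, chr10:102395674-102395703: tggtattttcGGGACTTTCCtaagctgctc
NFKBIB, chr19:38899932-38899961: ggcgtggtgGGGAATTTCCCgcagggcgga
TNFAIP3, chr6:137867182-137867211: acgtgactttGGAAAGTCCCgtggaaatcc
TNFAIP3, chr6:137867194-137867223: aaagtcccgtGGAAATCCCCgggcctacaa

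The longer upstream stretches of NFKBIA and BIRC3, both textbook NF-kB-induced genes, are given with the same capitals. That of NFKBIA covers 250 bases on the minus strand and holds 1 site. That of BIRC3 covers 216 bases on the plus strand, up to the GENCODE gene start, and holds 2 sites. A match is a description of letters, not a measured binding event. Both listed TNFAIP3 transcripts begin 3952 bases downstream of the RefSeq start beside which its sites are shown.
NFKBIA, chr14:35404750-35404999: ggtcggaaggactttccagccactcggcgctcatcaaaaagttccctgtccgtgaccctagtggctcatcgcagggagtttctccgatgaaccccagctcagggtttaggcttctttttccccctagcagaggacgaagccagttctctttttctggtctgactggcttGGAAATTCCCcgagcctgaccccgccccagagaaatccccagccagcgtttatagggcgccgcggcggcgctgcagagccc
BIRC3, chr11:102317234-102317449: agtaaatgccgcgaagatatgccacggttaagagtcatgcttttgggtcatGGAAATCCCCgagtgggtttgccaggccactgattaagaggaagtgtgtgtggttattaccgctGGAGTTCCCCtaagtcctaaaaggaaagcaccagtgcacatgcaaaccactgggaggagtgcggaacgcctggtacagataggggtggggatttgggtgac

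Facts of the libraries touch these values as follows. ALKBH3 was at 3.71 ± 0.487 FPKM in shALKBH3 and 10.1 ± 0.787 FPKM in NC (SD, 3 libraries each). Listed FPKM summed to between 326875 and 333987 in shALKBH3 libraries and to between 340950 and 361268 in NC libraries, and values were not rescaled for this. Sequencing depth is unknown, so no counting interval is given. Of 9 melanocyte markers, MITF and GPR143 are listed and SOX10, PMEL, MLANA, TYR, TYRP1, DCT and S100B are not, and the 2 summed to between 21.8 and 25.7 FPKM in shALKBH3 and between 17.7 and 21.2 FPKM in NC. MITF alone was at 11.1, 14.0 and 10.3 FPKM in shALKBH3 and 7.90, 9.53 and 3.29 FPKM in NC, without overlap. Its log2 difference was 0.78 (limma adjusted p = 0.31), and that of GPR143, whose groups overlapped, was -0.03. Whether differences in markers had a part in the members' differences was not tested. Of 5 epithelial markers, KRT8, KRT18 and KRT19 are listed and EPCAM and CDH1 are not, and the listed ones summed to between 458 and 578 FPKM in shALKBH3 and between 430 and 514 FPKM in NC, with KRT19 at 0.0997 to 0.658 FPKM in shALKBH3 and 0.248 to 1.15 FPKM in NC. Of 6 fibroblast markers, COL1A1, COL3A1 and PDGFRB are listed and summed to between 23.7 and 28.7 FPKM in shALKBH3 and between 23.4 and 32.6 FPKM in NC, with COL3A1 at 0.199 to 0.329 FPKM in shALKBH3 and 5.46, 0.311 and 0.966 FPKM in NC replicates 1, 2 and 3. None of 4 endothelial markers is listed, and of 7 leukocyte markers CSF1R alone is, at 0.583 to 0.726 FPKM in shALKBH3 and 0.697 to 1.08 FPKM in NC.

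None of the 9 listed members passed the test in either direction, where 1.76% of all tested genes did. A limma adjusted p under 0.05 was reached by 0 members higher, where 1.28% of all tested genes were, and by 0 members lower, where 0.477% were. At an unadjusted p under 0.05, 2 members (NFKBIB and RELB) were lower and 0 higher, against 8.15% and 8.98% of all tested genes. The log2 difference between shALKBH3 and NC, on the scale of log2(FPKM + 1), was negative in 7 of the 9, with a median of -0.07, where 51.3% of all tested genes were negative with a median of -0.01. In NFKBIB and RELB every shALKBH3 library lay below every NC library, and no member lay wholly above. Groups lay apart in either direction in 24.9% of all tested genes.

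**Figure D1:**
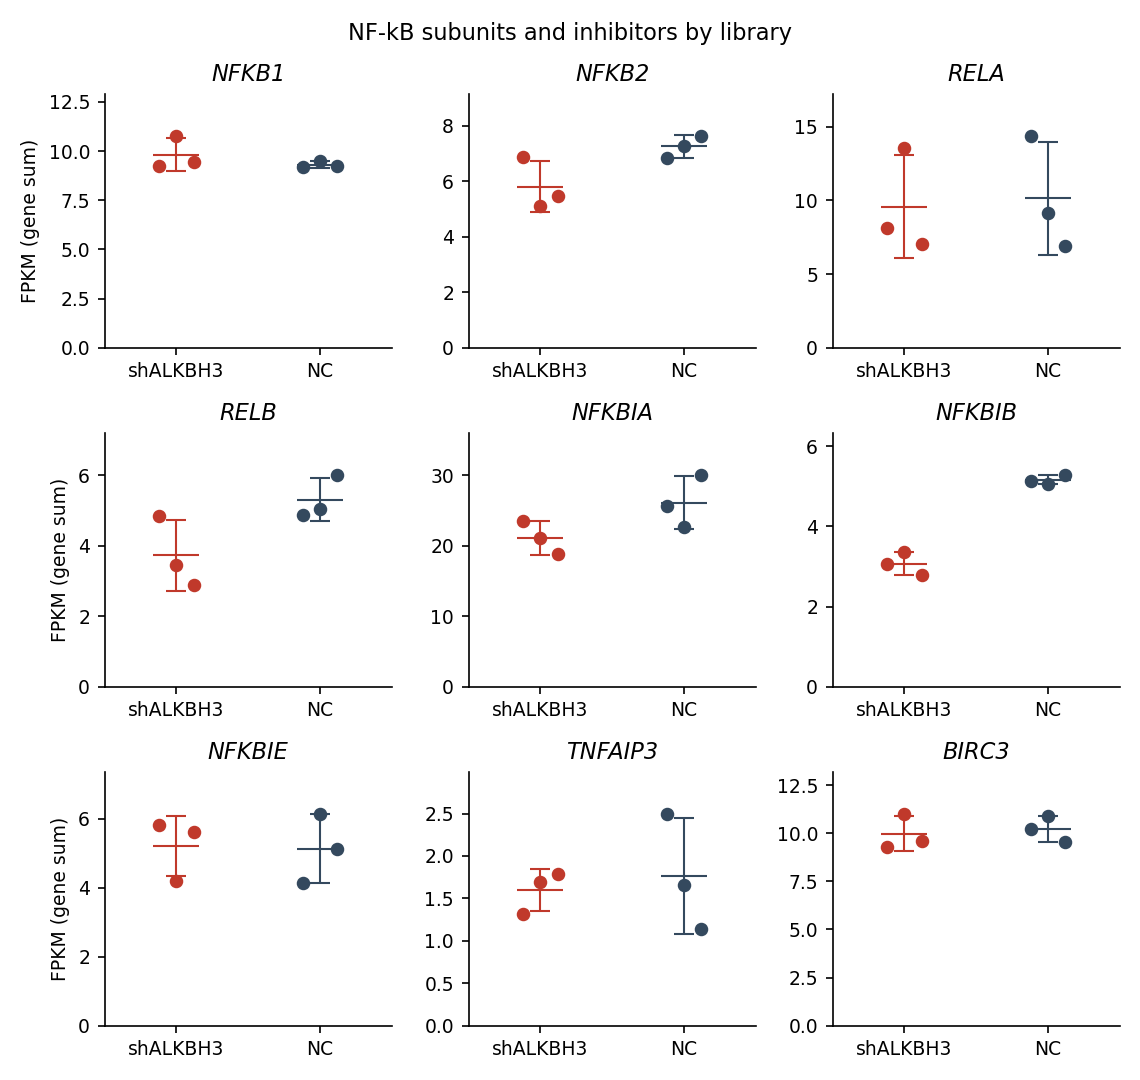
Gene-level FPKM of the 9 listed members in each library, with a separate linear axis from 0 per gene; points are libraries, and bars are the mean and SD of 3 libraries. The shALKBH3 and NC points of NFKBIB stand well apart (at most 3.36 against at least 5.07 FPKM), those of RELB narrowly, and those of the other 7 overlap.

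NFKBIB (ENSG00000104825), which encodes IkB-beta, showed the clearest separation. It was at 3.07, 3.36 and 2.79 FPKM in shALKBH3 replicates 1, 2 and 3, and at 5.13, 5.07 and 5.29 FPKM in NC replicates 1, 2 and 3. By gene sum, the 3 knockdown libraries thus lay together below the 3 tightly grouped controls. The main transcript, NFKBIB-201, spread more widely in NC by itself (SD 0.860 FPKM, described below). The knockdown mean was 3.07 ± 0.283 FPKM against 5.16 ± 0.112 FPKM in NC (SD, 3 libraries each), 40.5% lower. The log2 difference was -0.60 (SE 0.103, 95% interval -0.85 to -0.35), with a limma adjusted p of 0.054, just short of the threshold.

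NFKBIB has a short, GC-rich typical transcript of 1159 bases, with 10.5% of tested genes shorter and 96.3% lower in GC content (64.6% for NFKBIB). After a correction of each library for trends with length and GC content, its log2 difference was -0.33 (adjusted p = 0.36). With array weights it was -0.63 and passed (adjusted p = 0.021). NFKBIB overlaps SIRT2, a deacetylase gene on the opposite strand, and whether the authors' quantification used strand is not given in the sources used here. SIRT2 was at 15.3, 8.94 and 13.5 FPKM in shALKBH3 and 12.7, 7.04 and 12.3 FPKM in NC, with overlapping groups.

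Among its 2 listed transcripts, NFKBIB-201, which encodes 356 codons, held nearly all FPKM in 5 of the 6 libraries. NFKBIB-204 was at 0.0554, 0.0449 and 0.0130 FPKM in shALKBH3 and at 0.0717, 0.223 and 1.81 FPKM in NC, so that NC replicate 3 alone assigned a sizeable part to it. Its mean was 0.0378 FPKM in shALKBH3 and 0.703 FPKM in NC. Only NC thus reached the 0.5 FPKM that the higher group mean of each listed transcript has. The tight grouping of the NC gene sums (SD 0.112 FPKM) includes this transcript, and NFKBIB-201 alone had an SD of 0.860 FPKM in NC. NFKBIB-201 by itself was at 3.01, 3.31 and 2.78 FPKM in shALKBH3 and 5.06, 4.85 and 3.47 FPKM in NC, again without overlap, with a log2 difference of -0.43 (limma adjusted p = 0.53 over 19698 transcripts, of which 0.472% passed). With the most abundant transcript of every gene, the limma adjusted p of NFKBIB was 0.35.

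In the other IkB genes the groups overlapped. NFKBIA (ENSG00000100906), the IkB-alpha gene and the family's classic NF-kB-induced brake, was at 23.6, 21.1 and 18.8 FPKM in shALKBH3 replicates 1, 2 and 3, and at 25.7, 22.7 and 30.1 FPKM in NC replicates 1, 2 and 3. The highest knockdown library lay above the lowest control. Its log2 difference was -0.29 (SE 0.134, 95% interval -0.62 to 0.04, adjusted p = 0.34), and -0.17 after the length and GC correction.

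NFKBIE (ENSG00000146232), which encodes IkB-epsilon, was at 5.81, 4.20 and 5.62 FPKM in shALKBH3 and at 4.13, 6.14 and 5.12 FPKM in NC. The groups covered much the same range. Its log2 difference was 0.02 (SE 0.172, 95% interval -0.40 to 0.44, adjusted p = 0.96), and it was -0.01 once each library was set to the same median and 0.16 after the length and GC correction. Within the summed FPKM of these 3 IkB genes, NFKBIB made up 9.45%, 11.7% and 10.3% in shALKBH3 and 14.7%, 15.0% and 13.1% in NC. These shares did not overlap, but they include NFKBIB-204, which reached a mean of 0.5 FPKM in NC only. In NC replicate 3 NFKBIB-204 was at 1.81 FPKM and NFKBIB-201 at 3.47 FPKM. With NFKBIB-201 alone in place of the gene sum, the shares of the groups overlap. NFKBIA made up 69.1% to 73.6% in shALKBH3 and 67.0% to 74.3% in NC, and was the main IkB message in each library.

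RELB (ENSG00000104856), the non-canonical subunit gene, was at 4.84, 3.47 and 2.89 FPKM in shALKBH3 replicates 1, 2 and 3, and at 4.88, 5.05 and 6.02 FPKM in NC replicates 1, 2 and 3. All knockdown libraries were lower, but shALKBH3 replicate 1 all but met NC replicate 1. The mean was 3.73 ± 1.00 FPKM in shALKBH3 and 5.32 ± 0.613 FPKM in NC (SD, 3 libraries each). The log2 difference of -0.43 (SE 0.176, 95% interval -0.86 to -0.0045) did not pass over all genes (limma adjusted p = 0.29). Its transcript is the most GC-rich of the 9, with 97.4% of tested genes lower in GC content, and the difference was -0.21 after the length and GC correction.

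NFKB2 (ENSG00000077150), whose product partners RELB, was at 6.86, 5.10 and 5.47 FPKM in shALKBH3 and at 6.85, 7.28 and 7.64 FPKM in NC. Apart from shALKBH3 replicate 1, which was level with the lowest control, the knockdown libraries were lower. The log2 difference was -0.29 (SE 0.126, 95% interval -0.59 to 0.02, adjusted p = 0.32), and -0.16 after the length and GC correction. RELB and NFKB2 together summed to 11.7, 8.56 and 8.36 FPKM in shALKBH3 and to 11.7, 12.3 and 13.7 FPKM in NC. In this pair shALKBH3 replicate 1 resembled the controls and the other two knockdown libraries did not.

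In the canonical subunit genes the groups overlapped. NFKB1 (ENSG00000109320), which encodes the p50 precursor, was at 9.21, 10.8 and 9.43 FPKM in shALKBH3 and at 9.20, 9.51 and 9.23 FPKM in NC. Its log2 difference was 0.06 (SE 0.0935, 95% interval -0.16 to 0.29, adjusted p = 0.74), the narrowest interval of the 9.

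RELA (ENSG00000173039), the main activating subunit gene, was at 8.16, 13.6 and 7.03 FPKM in shALKBH3 and at 14.4, 9.14 and 6.93 FPKM in NC. Each group spanned a wide range, and the log2 difference of -0.07 had the widest interval of the 9, from -0.84 to 0.70 (SE 0.316, adjusted p = 0.92). The sum of the 4 listed subunit genes was 29.1, 32.9 and 24.8 FPKM in shALKBH3 and 35.3, 31.0 and 29.8 FPKM in NC. The ratio of summed IkB to summed subunit FPKM was 1.12, 0.872 and 1.10 in shALKBH3 and 0.988, 1.09 and 1.36 in NC, and overlapped.

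In the NF-kB-induced ubiquitin regulators the groups overlapped as well. TNFAIP3 (ENSG00000118503), whose product trims the ubiquitin chains that activate IKK, had the lowest level of the 9, at 1.32, 1.69 and 1.78 FPKM in shALKBH3 and 2.50, 1.66 and 1.14 FPKM in NC. The knockdown libraries lay inside the range of the controls, and the log2 difference was -0.07 (SE 0.206, 95% interval -0.57 to 0.43, adjusted p = 0.88). The TNFAIP3 sums rested on 2 listed transcripts, of 669 and 214 codons, which both begin 3952 bases downstream of the RefSeq start. The transcript of 214 codons averaged 0.454 FPKM in shALKBH3 and 0.873 FPKM in NC, so that only NC reached 0.5 FPKM. Tested singly, the transcript of 669 codons had a log2 difference of 0.25 (limma adjusted p = 0.82), with overlapping groups. BIRC3 (ENSG00000023445), an inhibitor-of-apoptosis ubiquitin ligase gene, was at 9.31, 11.0 and 9.59 FPKM in shALKBH3 and at 10.2, 10.9 and 9.53 FPKM in NC. The controls lay inside the range of the knockdown libraries, with a log2 difference of -0.03 (SE 0.103, 95% interval -0.28 to 0.22, adjusted p = 0.88). Its typical transcript is low in GC content, with 1.14% of tested genes lower, and the difference was -0.17 after the length and GC correction (adjusted p = 0.31).

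**Figure D2:**
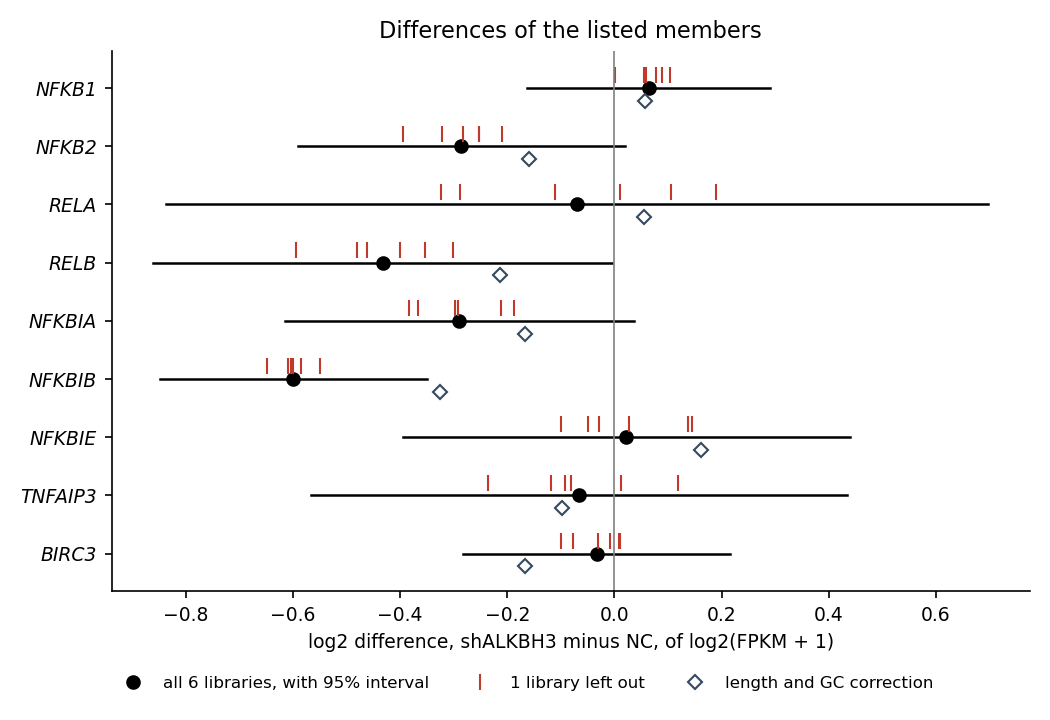
Log2 difference (shALKBH3 minus NC) of each listed member on the scale of log2(FPKM + 1); filled points and lines are the estimate from all 6 libraries and its 95% interval, ticks above are the estimates with 1 library left out, and diamonds below are the estimates after the length and GC correction. The NFKBIB interval runs from -0.85 to -0.35 and its diamond sits at -0.33, while RELA has the widest interval.

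In order of mean level, NFKBIA led in both groups, at 21.2 ± 2.39 FPKM in shALKBH3 and 26.1 ± 3.72 FPKM in NC (SD, 3 libraries each). BIRC3, NFKB1 and RELA followed, with means from 9.58 to 9.97 FPKM in shALKBH3 and from 9.31 to 10.2 FPKM in NC, and their library ranges overlapped, except that NFKB1 stayed just below BIRC3 in NC (at most 9.51 against at least 9.53 FPKM). NFKB2, NFKBIE, RELB and NFKBIB came next in shALKBH3, with means of 5.81, 5.21, 3.73 and 3.07 FPKM, and each overlapped its neighbour. In NC NFKB2 averaged 7.26 FPKM and lay above RELB, NFKBIB and NFKBIE, whose means of 5.13 to 5.32 FPKM did not separate. TNFAIP3, summed over its 2 listed transcripts, was last, at 1.60 ± 0.245 FPKM in shALKBH3 and 1.77 ± 0.683 FPKM in NC. NFKBIB was below NFKBIE in every shALKBH3 library (at most 3.36 against at least 4.20 FPKM), whereas the 2 genes overlapped in NC. Summed over the 9 members, FPKM was 72.1, 74.3 and 63.4 in shALKBH3 and 83.0, 77.4 and 81.0 in NC. Per 10000 listed FPKM, the same sums were 2.16, 2.27 and 1.90 in shALKBH3 and 2.31, 2.27 and 2.24 in NC, where the groups overlapped.

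Assignment of fragments to transcripts differed sharply between libraries in RELA and RELB. RELA-202, with 551 codons, and RELA-201, with 548 codons, share 2681 bases, and RELA-202 has 19 more, of which 9 are internal. Those 9 coding bases lie at the start of exon 6 (chr11:65659789-65659797, minus strand, GRCh38) and are in capitals between 21 bases on each side.
RELA-202: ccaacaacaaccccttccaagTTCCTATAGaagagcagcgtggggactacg
RELA-201: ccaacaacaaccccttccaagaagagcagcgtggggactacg

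RELA-201 was at 7.06, 12.1 and 6.70 FPKM in shALKBH3, and in NC it was listed at 0 in replicates 1 and 3 and at 6.82 FPKM in replicate 2. RELA-202 was at 0.0107, 0.0058 and 0.0029 FPKM in shALKBH3 and at 13.5, 0.0541 and 6.66 FPKM in NC. In each library 1 of the 2 transcripts thus held nearly all of their FPKM, and in all 3 shALKBH3 libraries and NC replicate 2 it was RELA-201. Tested singly, the log2 differences were 2.23 for RELA-201 (limma adjusted p = 0.51) and -2.28 for RELA-202 (adjusted p = 0.53).

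RELB showed the same kind of split without following the groups. RELB-201 and RELB-202 share 2219 bases, and RELB-201 (579 codons, against 576) has 75 more, among them a 9-base exon 3 (chr19:45009814-45009822, plus strand, GRCh38), again in capitals.
RELB-201: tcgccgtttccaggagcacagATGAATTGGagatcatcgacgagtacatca
RELB-202: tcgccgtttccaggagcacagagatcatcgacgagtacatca

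RELB-202 was listed at 0 in shALKBH3 replicate 1 and was at 2.72 and 2.15 FPKM in shALKBH3 replicates 2 and 3. In NC it was at 4.15 and 5.23 FPKM in replicates 1 and 3 and listed at 0 in replicate 2. RELB-201 held all RELB FPKM in shALKBH3 replicate 1 (4.84) and NC replicate 2 (5.05). These transcripts differ in few bases, and the tool that divided fragments among them is not given in the sources used here, so the comparisons rest on the gene sums.

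NFKB2 has transcripts from separate starts. NFKB2-204 begins at base 102394110 of chromosome 10, the start of a RefSeq window with no kB match, and NFKB2-201 begins 1 base from the start of the window with the matches at chr10:102395519-102395548 and chr10:102395674-102395703. Both encode 899 codons. A further RefSeq start lies 468 bases downstream of the NFKB2-204 start. Its window holds the matches at chr10:102394462-102394491 and chr10:102394490-102394519. NFKB2-204 was listed at 0 in shALKBH3 replicate 1 and was at 0.409 and 2.76 FPKM in shALKBH3 replicates 2 and 3, against 2.92, 4.28 and 3.97 FPKM in NC. NFKB2-201 was at 5.72, 3.76 and 1.61 FPKM in shALKBH3 and 2.73, 2.25 and 2.60 FPKM in NC. NFKB2-204 was lower in each knockdown library than in any control. Its log2 difference of -1.43 did not pass (limma adjusted p = 0.49), and that of NFKB2-201 was 0.31 (adjusted p = 0.79). The 2 transcripts share 2920 bases, with 91 only in NFKB2-201 and 496 only in NFKB2-204. How fragments were divided between them is not given, so use of either start was not tested. By gene sum, groups lay apart in 24.9% of all tested genes, and the share among single transcripts was not counted.

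For NFKBIA most FPKM went to NFKBIA-209, a transcript of 227 codons that begins 609 bases downstream of the RefSeq start, rather than to NFKBIA-201 with 317 codons. NFKBIA-209 was at 20.2, 20.2 and 14.5 FPKM in shALKBH3 and 19.3, 21.5 and 26.0 FPKM in NC. NFKBIA-201 was at 1.21, 0.647 and 1.01 FPKM in shALKBH3 and 3.47, 0.430 and 0.909 FPKM in NC. NFKBIA-201 and NFKBIA-209 share 1195 bases, and none of the 3 listed transcripts passed singly. The listed transcripts of the 9 genes numbered 23, and of the 17 with a mean of at least 1 FPKM none had an adjusted p under 0.05 when tested singly with limma.

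**Figure D3:**
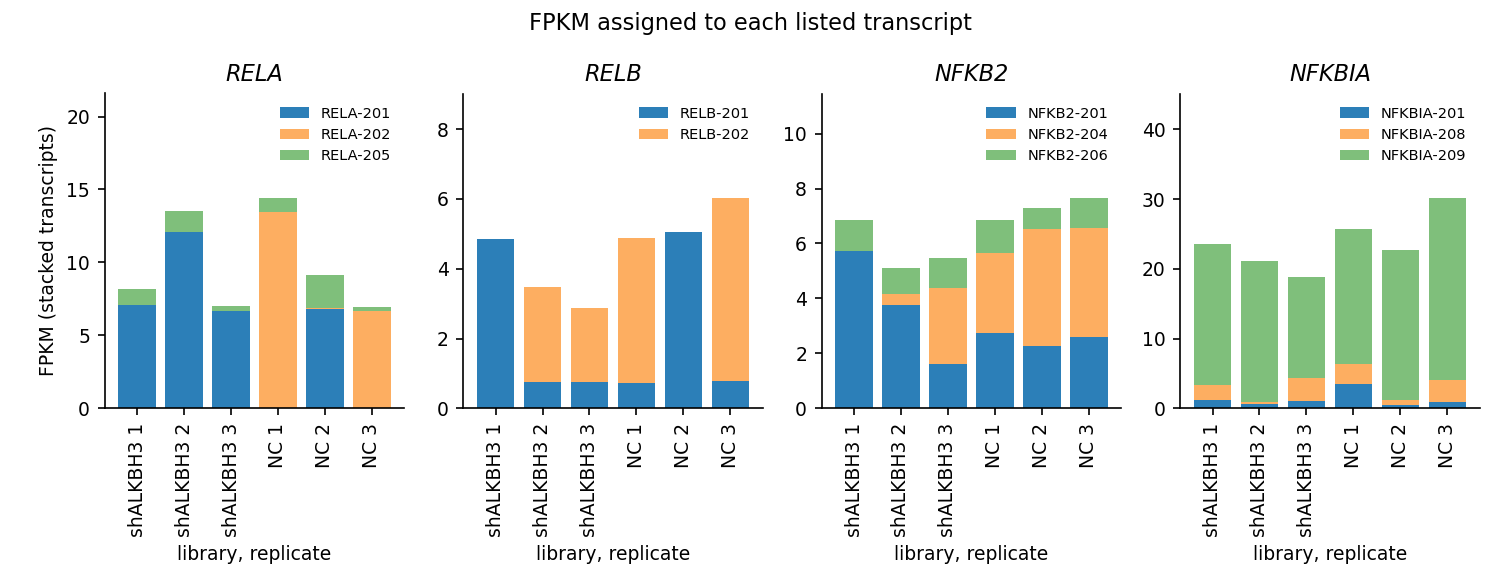
FPKM assigned to each listed transcript of RELA, RELB, NFKB2 and NFKBIA, stacked per library on linear axes from 0, with shALKBH3 replicates left of NC replicates. The RELA-201 and RELA-202 colours swap between libraries while the column heights do not separate the groups, and NFKB2-204 is smaller in each shALKBH3 column than in any NC column.

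Outside the 9 members, 98 genes in 7 lists of the NF-kB pathway were tested, and 4 were higher and 4 lower. Among all tested genes, 1.28% were higher and 0.477% lower. IKK complex genes and their activators gave 0 of 13 past the threshold, with a median log2 difference of 0.06. Without adjustment, 2 were higher and 0 lower at that level, where 8.98% and 8.15% of all tested genes were. CHUK, the IKK-alpha gene, was at 8.78, 9.56 and 9.31 FPKM in shALKBH3 and 7.79, 7.44 and 7.92 FPKM in NC (log2 difference 0.23, limma adjusted p = 0.26). The adaptor kinase gene RIPK1 differed by 0.21 on the log2 scale (adjusted p = 0.28), and MAP3K7, which encodes the IKK-activating kinase TAK1, by 0.30 (adjusted p = 0.34). By their most abundant transcripts alone, RIPK1 had -0.09 and MAP3K7 -0.20. After the length and GC correction CHUK had 0.15 and MAP3K7 0.18.

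Receptor adaptors and ubiquitin machinery likewise gave 0 of 23 in limma, with a median of -0.0003. Without adjustment, 4 were higher and 1 lower, where 8.98% and 8.15% of all tested genes were. IRAK1, a kinase of the interleukin-1 and Toll-like receptor pathway, was at 26.4, 21.0 and 24.7 FPKM in shALKBH3 and 9.15, 17.6 and 9.97 FPKM in NC, with no overlap. Its log2 difference of 0.97 had an adjusted p of 0.14. This became 0.028 without NC replicate 2, and 0.23 to 0.34 when any other single library was left out. With array weights, where calls over all genes also rose, it was 0.044, and with a replicate block it was 0.27. Its most abundant transcript alone had a difference of 0.16. FBXW11, whose product recognises phosphorylated IkB for degradation, was 0.35 higher on the log2 scale (adjusted p = 0.16) but had -1.96 by its most abundant transcript. CARD10, a scaffold gene upstream of IKK, had -0.37 (adjusted p = 0.18), and -0.22 after the length and GC correction. Of 8 tested atypical IkB and nuclear regulators 0 passed in limma, with a median of -0.11. Without adjustment, 1 was higher and 0 lower, against the same 8.98% and 8.15%. NKIRAS2, which encodes an IkB-binding Ras-like protein, had a log2 difference of 0.70, NFKBIL1 of -0.32 and COMMD1, which promotes RELA turnover, of -0.20, with adjusted p-values from 0.28 to 0.45. After the length and GC correction NFKBIL1 was at -0.09 and COMMD1 at -0.05, and without NC replicate 3 they were at -0.19 and -0.10. By their most abundant transcripts NFKBIL1 was at -1.12 and NKIRAS2 at 1.21.

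Among 12 further brakes 2 rose, where 1.28% of all tested genes did. USP18, the ISG15 protease gene that also restrains interferon receptor signalling, was at 19.6, 20.1 and 17.9 FPKM in shALKBH3 and 3.65, 4.55 and 4.15 FPKM in NC (log2 1.99, limma adjusted p = 0.0017). N4BP1, an RNase gene that dampens NF-kB signalling, was at 11.0, 11.0 and 10.8 FPKM in shALKBH3 and 7.14, 7.17 and 7.25 FPKM in NC (log2 0.54, adjusted p = 0.034). The knockdown libraries of both genes stood clear of the controls, though N4BP1 had adjusted p-values from 0.081 to 0.15 when any 1 library was left out. With the most abundant transcript of every gene its log2 difference, from its 1 listed transcript, was the same and the adjusted p was 0.054. The median of the 12 was 0.13.

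Of 12 tested receptors 1 rose, where 1.28% of all tested genes did. It was TLR3, which senses double-stranded RNA, at 2.31, 2.86 and 2.64 FPKM in shALKBH3 and 0.924, 0.787 and 0.746 FPKM in NC (log2 0.98, adjusted p = 0.023). Its adjusted p ran from 0.059 to 0.12 when any 1 library was left out. The receptor list had a median of 0.27. Of 8 tested ligands 1 rose, against the same 1.28%. It was TNFSF10, which encodes the death ligand TRAIL, at 7.13, 8.65 and 8.04 FPKM in shALKBH3 and 1.88, 1.91 and 1.45 FPKM in NC (log2 1.70, adjusted p = 0.0039). TNF, LTA and LTB, ligands that engage the pathway, have no listed transcript. The ligand list had a median of -0.06.

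Of 33 targets other than the members, 26 are listed, and the 22 that averaged at least 1 FPKM were tested. Among these 22, 0 rose and 4 fell in limma, where 1.28% of all tested genes rose and 0.477% fell. The median of the 22 was -0.25. The 4 were the chemokine genes CXCL8 (log2 -1.01), CXCL2 (-1.04) and CXCL3 (-0.90) and the growth factor gene CSF2 (-1.29), with adjusted p-values from 0.0030 (CXCL8) to 0.047 (CXCL2). Without adjustment, 8 targets were lower and 1 higher, where 8.15% and 8.98% of all tested genes were. CXCL3 lost its call without any 1 library (adjusted p up to 0.17), CXCL2 without any but NC replicate 2 (up to 0.16), and CSF2 without any but NC replicates 2 and 3 (up to 0.097). CXCL2 had an adjusted p of 0.060 after quantile normalization and 0.055 with equal medians. With the most abundant transcript of every gene, CXCL2 and CXCL3 kept their log2 differences and had adjusted p-values of 0.091 and 0.082. These lists were chosen with earlier results of the same data known, so their counts are descriptions.

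**Figure D4:**
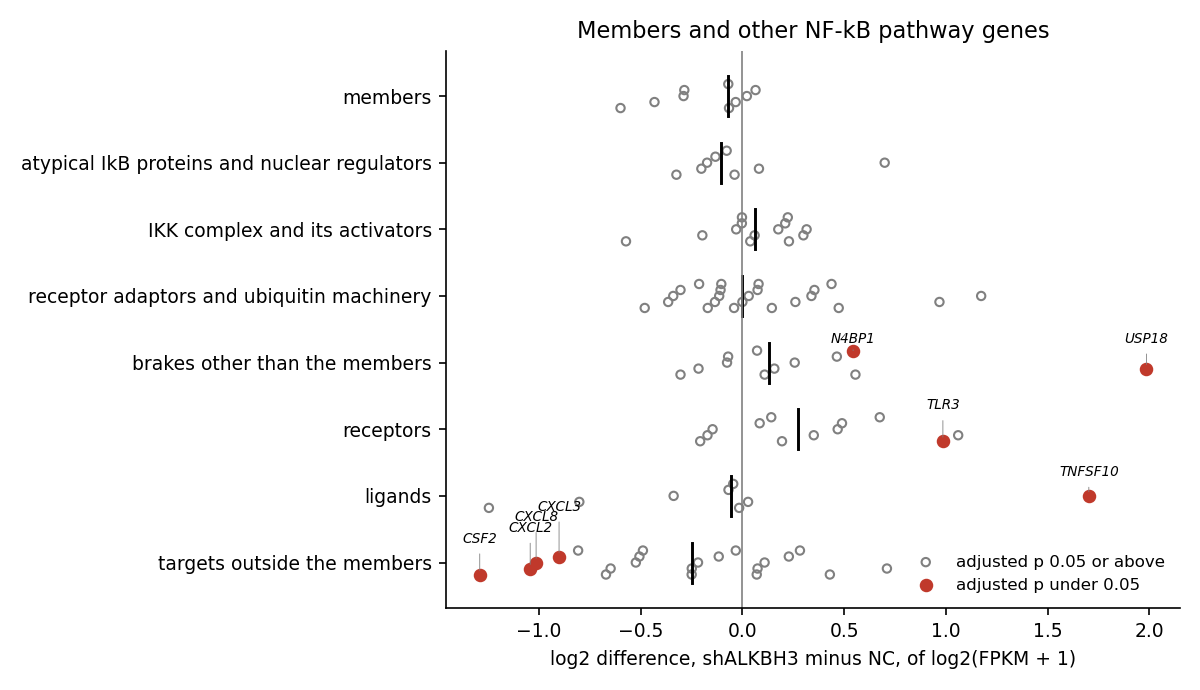
Log2 difference (shALKBH3 minus NC) of the 9 members and of the tested genes of 7 other NF-kB pathway lists; each point is a gene, filled where its limma adjusted p is under 0.05, the upright bar is the list median, and vertical scatter within a row has no meaning. No member is filled, while 4 targets at -1.29 to -0.90 and 4 genes at 0.54 to 1.99 (N4BP1, TLR3, TNFSF10, USP18) are.

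By Pearson correlation of log2(FPKM + 1) over the 6 libraries, the tested genes outside the members most like NFKBIB were SEPHS2 (r = 0.996), CITED2, WNT5A and B3GALT1 (0.994 each) and CARD10 (0.992). Those most like RELB were EVA1B (r = 0.996), CST3 (0.993), and CLPP, RNF215 and POLR3K (0.991 each). With 6 libraries in 2 groups such values are common: 111 genes exceeded 0.95 for NFKBIB and 91 for RELB. The points share libraries and any difference between the groups, so these are descriptions.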

How the data were processed

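The authors deposited FPKM per transcript for each of the 6 libraries, per the file headers. The submitters' processing notes name hg19, HTSeq 0.6.0 and DESeq2, with no role given. No aligner, annotation or transcript quantifier is named there or in the labels. Whole reads could not be recovered, since FPKM reach down to 1e-06. In each listed transcript the higher group mean is at least 0.5 FPKM.

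Transcript IDs were matched without version to GENCODE 29 (GRCh38), 28796 of 28900, and FPKM were summed per gene. The 10475 of 11387 genes averaging 1 FPKM or more were tested on log2(FPKM + 1) with limma 3.58.1 in R 4.3.3 (variance trend, two-sided, Benjamini-Hochberg over all genes tested, threshold 0.05). Intervals are 95% limma intervals. The test was tested on simulated data. Python 3.11.15, pandas 2.3.3 and matplotlib 3.10.9 made tables and plots. Promoters come from RefSeq (GRCh38.p14).

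Named genes are ALKBH3, all 10 members, and of each pathway list the genes past the threshold or, with none, the 3 with the smallest p. The 5 genes most like each of the 2 members with the smallest p were also named. The plan allowed for counts or FPKM. Members and lists were chosen with earlier results of these data known. Other genes named (SIRT2, TNF, LTA, LTB and markers) serve as checks. Alternatives covered pseudocount, filter, scaling, transcript choice, a loess correction for length and GC content, array weights, a replicate block and leaving out each library.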

Additional observations from a re-analysis of the deposited data

How the results depend on the processing

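The count of members past the threshold stayed at 0 higher and 0 lower under each alternative except array weights, where NFKBIB made it 1 lower. NFKBIB ranged from -0.73 (pseudocount 0.1 FPKM) to -0.33 (length and GC correction) and from -0.65 to -0.55 when single libraries were left out, with adjusted p from 0.10 to 0.20. With a minimum mean of 5 FPKM, NFKBIB, RELB and TNFAIP3 were not tested.

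Some signs turned. With the most abundant transcript, among members NFKB2 was 0.31, RELA 2.23, NFKBIE -0.024, TNFAIP3 0.25, and among pathway genes RIPK1 was -0.091, MAP3K7 -0.20 and FBXW11 -1.96. RELA was 0.055 after the length and GC correction, and NFKBIE -0.014 with equal medians. The most abundant transcript was RELA-201 for RELA and NFKBIE-204 for NFKBIE. NFKBIE-204 and NFKBIE-201 have the same exons and share all 2581 bases. The cause of these changes was not tested. With single libraries left out, RELA ran from -0.32 to 0.19, NFKBIE from -0.10 to 0.14, TNFAIP3 from -0.24 to 0.12 and BIRC3 from -0.10 to 0.01.

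Over all genes, 134 higher and 50 lower became 80 and 25 with the most abundant transcript, 320 and 160 with array weights, and 39 to 87 and 9 to 22 with 1 library left out. Pathway genes, 4 higher and 4 lower, became 2 and 2 at a minimum of 5 FPKM (fewer genes tested), 3 and 2 with the most abundant transcript, 7 and 6 with array weights, and 2 to 3 and 1 to 3 with 1 library left out. The replicate block gave 17 and 3 genes, and 1 and 0 pathway genes. Same-numbered libraries did not deviate together (r = -0.088, 0.075 and -0.012). The labels do not say whether the numbers pair libraries, and these correlations cannot settle it. No member passed with the block.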
